A study of Mus musculus with 18 samples.

Results

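The RNA of 10 genes that are characteristic of fat cells was measured in mouse prostates with altered ELAC2, the RNase Z enzyme that trims the 3′ ends of nuclear and mitochondrial tRNAs. The 10 genes are Cfd, Fabp4, Cidec, Adipoq, Plin1, Plin4, Retn, Car3, Cidea and Ucp1. They were chosen by symbol, and all 10 were found among the 55469 genes of each deposited table. Male mice on the background labelled C56NL/6N gave RNA from their ventral and lateral lobes, with 3 libraries, each of 1 mouse, in each of 6 groups. WT mice carried 2 intact copies of Elac2 (ELAC2+/+). KO mice (ELAC2-/-) had Elac2 exon 8 flanked by loxP sites and deleted by Cre under the probasin (Pb) promoter, which acts in prostate epithelium and not in fat cells, so the Elac2 gene of fat cells is not the target in this line. A537T mice carried the alanine to threonine change of that name in both copies of Elac2 in all cells of the body. Each genotype was sampled at 10 and at 30 weeks of age. The dissection removed seminal vesicles, bladder, urethra and the connective and adipose tissue around the lobes. Lines crossed to TRAMP were not analysed here.

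White fat cells hold a single large lipid droplet, and they secrete hormones into the blood. Most of the genes followed here serve one of these tasks. Perilipins and CIDE proteins coat and enlarge the droplet, FABP4 carries fatty acids through the cytosol, and adiponectin, adipsin and resistin are secreted. Brown and beige fat cells hold many small droplets and many mitochondria, and they burn fat for heat through UCP1. In the mouse, fat lies close around the prostate lobes, and the dissection was meant to remove it. From which cells the adipocyte RNA of these libraries came was not tested. In bulk tissue, fewer fat cells and less RNA of these genes per cell cannot be told apart.

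All values below are normalized counts, that is, gene counts divided by a size factor for each library within a table of 6 libraries, unless they are called CPM, which is the share of a gene in the reads recovered from these counts. Libraries held 6569642 to 11225281 recovered reads, and a level of 0 allows up to 3 reads in a library, which covers counting error only. The libraries differed in genes of neighbouring tissues. A list of 20 skeletal muscle genes took 3.90 to 12.6% of the reads in WT libraries of 10 weeks. The same list took 0.0571 to 2.05% in KO libraries of that age, 1.53 to 4.36% in the A537T libraries, and at most 0.0708% in any library of 30 weeks. A list of 10 seminal vesicle genes took 6.56 to 10.3% of the reads in KO at 10 weeks and at most 4.55% in WT and 0.2001% in A537T. At 30 weeks it was at 63237 to 91756 CPM in 4AF, 6AF, 7AF and 9AF and at most 3.76 CPM in the other 5 libraries, the 3 WT libraries among them. A list of 10 prostate epithelial genes was at 4709 to 147672 CPM, with its lowest value in 15AF, a KO library of 10 weeks. Genes of mesothelium, the lining of fat and abdominal organs, were at 2.89 to 8.05 CPM in KO and 15.4 to 23.3 CPM in WT at 10 weeks. A macrophage list was at 182 to 389 CPM in A537T and 113 to 144 CPM in WT at 30 weeks. The part of these tissues in the results on adipocyte genes was not tested. Elac2 itself was at 13.7 to 16.1 CPM in KO and 15.2 to 16.4 CPM in WT at 10 weeks, and at 10.3 to 18.4 against 16.3 to 21.9 CPM at 30 weeks. In A537T it was at 19.0 to 20.2 CPM at 10 weeks and 12.2 to 22.4 CPM at 30 weeks. A count over the whole gene does not isolate exon 8, and it also holds the RNA of cells without Cre.

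The genes lie on several chromosomes of GRCm38. Cfd, which encodes adipsin (complement factor D), is on chromosome 10 at 79890853-79892655 (+). Adipoq, for adiponectin, is on chromosome 16 at 23146536-23158028 (+), and Retn, for resistin, is on chromosome 8 at 3655770-3660110 (+). The droplet proteins perilipin 1 (Plin1) and perilipin 4 (Plin4) are encoded on chromosome 7 at 79720218-79732903 (-) and on chromosome 17 at 56100591-56109803 (-). Cidec, whose protein joins droplets into larger ones, is on chromosome 6 at 113424634-113435760 (-), and Ucp1 is on chromosome 8 at 83290352-83298452 (+). Fabp4 and Car3, for carbonic anhydrase III, lie on chromosome 3 at 10204088-10208576 (-) and 14863512-14872523 (+).

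Because the genes varied together across libraries (below), the 250 bases before their RefSeq starts were searched on both strands for letters known from adipocyte regulation. RefSeq windows on GRCm38.p6 were at hand for 7 of the 10 genes, with 8 windows in all. The direct repeat bound by PPARγ with RXR (DR1, AGGTCA repeated after 1 base) was in 0 of the 8 windows and in 0.0335% of 32851 windows of all genes. A single AGGTCA was in 1 window, that of Ucp1, against 14% of all. A C/EBP-type motif, TTGCNNAA, was in the windows of Plin1 and Cidec, against 9.56%. CCAAT was in those of Adipoq and Plin4, against 33.8%, and TATAAA was in none, against 12.4%. Of these, 4 stretches are shown, as examples of the letters found, with the motif in capitals. Plin1 held TTGCNNAA at -187 and at -58 from its start, and only the first is shown, because the printed window stops at the exons of longer annotated transcripts. The CCAAT of Plin4 is not shown, and the Cidec window belongs to the downstream of its 2 RefSeq starts.
Plin1, chr7:79732904-79733026, minus strand, TTGCNNAA: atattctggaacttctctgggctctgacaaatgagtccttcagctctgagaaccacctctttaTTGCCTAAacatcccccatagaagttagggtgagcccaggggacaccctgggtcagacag
Cidec, chr6:113434765-113435014, minus strand, TTGCNNAA: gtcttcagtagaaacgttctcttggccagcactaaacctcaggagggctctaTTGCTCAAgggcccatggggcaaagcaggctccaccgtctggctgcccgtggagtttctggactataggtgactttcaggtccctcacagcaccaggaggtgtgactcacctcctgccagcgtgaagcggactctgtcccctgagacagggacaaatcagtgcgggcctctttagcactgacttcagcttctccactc
Adipoq, chr16:23146476-23146535, plus strand, CCAAT on either strand: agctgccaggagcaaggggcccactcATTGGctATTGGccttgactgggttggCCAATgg
Ucp1, chr8:83290288-83290347, plus strand, AGGTCA: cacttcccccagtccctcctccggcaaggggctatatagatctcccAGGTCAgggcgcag
In Adipoq the letters occur 3 times within 34 bases of the start, at -34 and -27 on the opposite strand and at -7 on the same strand. These matches are letters in a window and describe no binding.

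Per kilobase of transcript, the order of the levels in WT at 10 weeks was Car3 (756 ± 314 CPM per kb, SD, n = 3), Cfd (186 ± 40.0), Fabp4 (145), Plin4 (32.0), Adipoq (29.2), Cidec (19.2), Retn (11.4), Plin1 (8.07), Cidea (2.43) and Ucp1 (2.20). Neighbours in this order overlapped between libraries, apart from Car3 with Cfd and Fabp4 with Plin4. Within each single library the order held, except in 10AF, where Plin1 was above Retn and Ucp1 above Cidea. In WT at 30 weeks all 10 means were lower, with Fabp4 first at 23.6, followed by Car3 (18), Cfd (16.5), Plin4 (6.63) and Adipoq (3.18). The 3 WT libraries of 30 weeks spread widely, so that the SD of Adipoq in CPM (4.01) was close to its mean (4.11). Levels of the ages are set side by side without a test, because the ages were normalized in separate tables. All 10 genes together took 0.158 to 0.234% of the reads in WT at 10 weeks and 0.00242 to 0.0182% at 30 weeks.

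**Figure D1:**
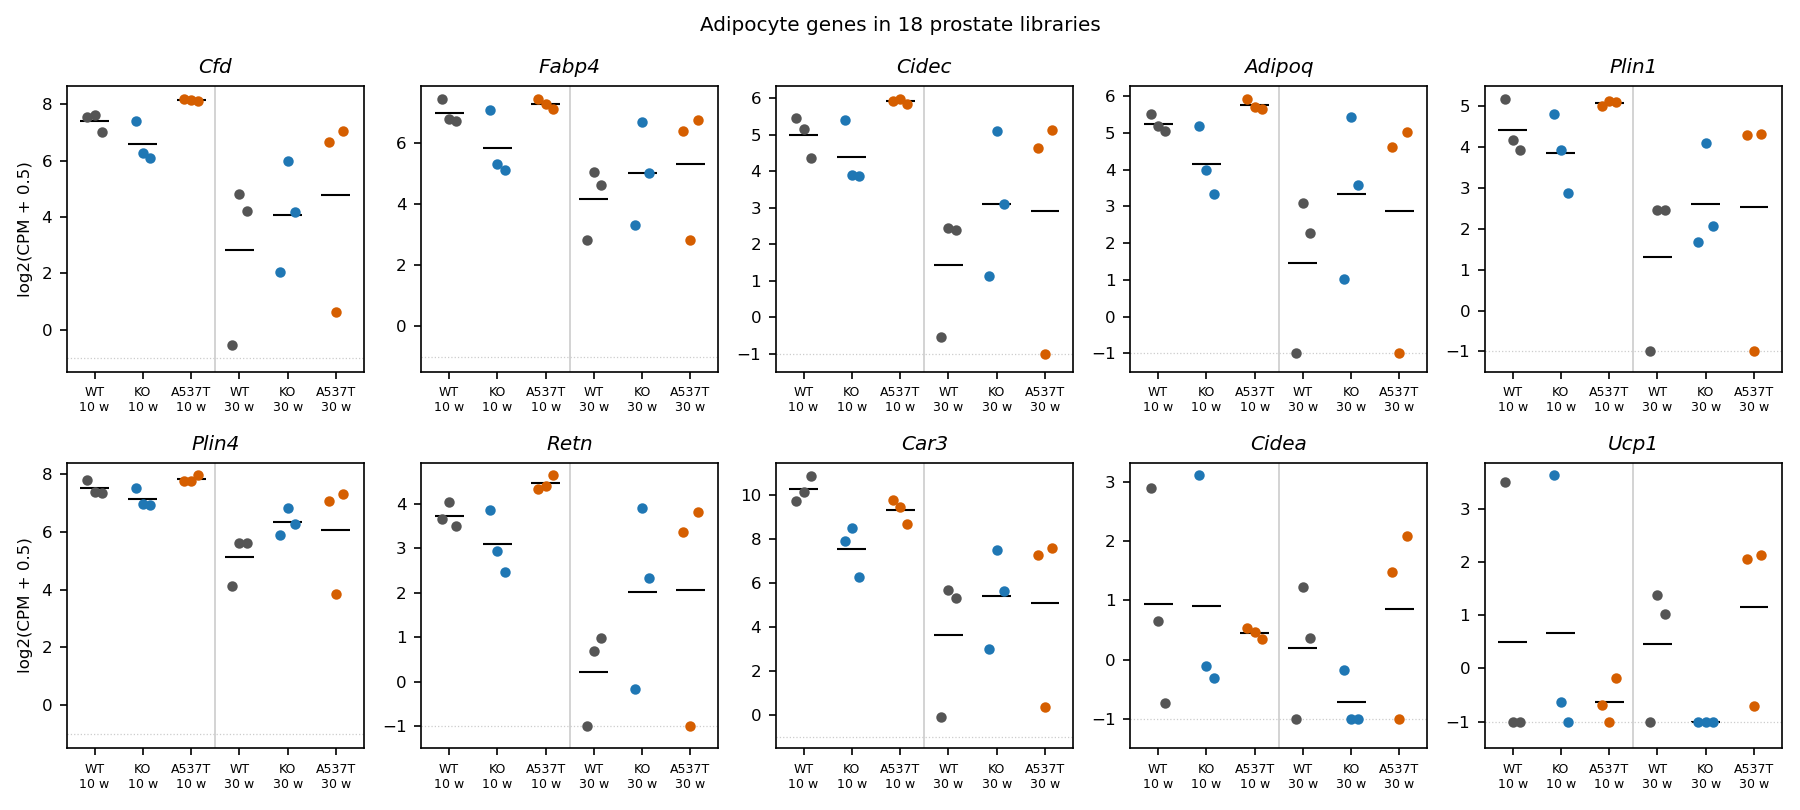
Level of each of the 10 genes in log2(CPM + 0.5) (vertical axis) in the 6 groups (WT grey, KO blue, A537T orange), with a point per library, a bar at the mean of these log2 values and a dotted line at 0 CPM. Every gene but Cidea and Ucp1 sits higher in all 9 libraries of 10 weeks than in library 1AF or 8AF of 30 weeks, where Adipoq and Plin1 are at 0.

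In KO prostates at 10 weeks most adipocyte genes were lower than in WT, although none passed the test across all genes. Of the 10, 9 had a lower fitted level in KO, with a median log2 fold change of -0.86 beside -0.0061 over all 15089 genes tested, of which 49.4% were higher in KO. Cfd, Adipoq, Plin4 and Car3 were lower in all 3 KO libraries than in all 3 WT libraries, a separation found in that direction for 14.3% of all genes. Adiponectin RNA was at 361, 308 and 339 in WT and at 267, 124 and 72.0 in KO. Library 13AF was the highest of the KO libraries for Adipoq and for all other members except Car3. Cfd was at 1532, 1706.5 and 1359 in WT and at 1249, 634 and 508 in KO. Plin4, whose protein covers nascent droplets, was at 1785, 1413 and 1699 against 1369, 1014 and 912. The fitted changes were -1.32 ± 0.43 for Adipoq (log2 ± SE, adjusted p = 0.195 in limma), -1.05 ± 0.32 for Cfd (adjusted p = 0.188) and -0.59 ± 0.18 for Plin4 (adjusted p = 0.189).

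The largest difference was that of Car3, the cytosolic carbonic anhydrase of fat and muscle. It was at 6759, 9444 and 19296 in WT and at 1783, 2924 and 570 in KO. The log2 fold change was -2.90 ± 0.64, with an adjusted p of 0.183 in limma. Among the genes whose libraries overlapped, Fabp4 was at 1387, 944.5 and 1084 in WT and at 1004, 324 and 257 in KO. Here 13AF lay among the WT values, and the other 2 KO libraries lay well below them (log2 fold change -1.36 ± 0.49, adjusted p = 0.215). Cidec, Plin1 and Retn had log2 fold changes of -0.84, -0.79 and -0.89, and in each of them 13AF lay among the WT values. Limma with Benjamini-Hochberg adjustment called 0 of 15089 genes, while 6 of the 10 members had an unadjusted p under 0.05, beside 19.4% of all genes. DESeq2 on recovered reads called 1 member, Car3 (log2 fold change -2.74, adjusted p = 0.000214), beside 4.75% of all genes, and edgeR called 0. Without WT library 10AF, limma called Car3 (log2 fold change -3.23, adjusted p = 0.0307), but also 19.2% of all genes. With the skeletal muscle genes as a covariate, the fold change of Car3 was -1.12 ± 0.69 and that of Adipoq -1.26 ± 0.77. The muscle list took 3.90 to 12.6% of reads in WT and 0.0571 to 2.05% in KO, without overlap. That fit therefore cannot separate muscle RNA from genotype, and the part of muscle RNA was not tested.

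**Figure D2:**
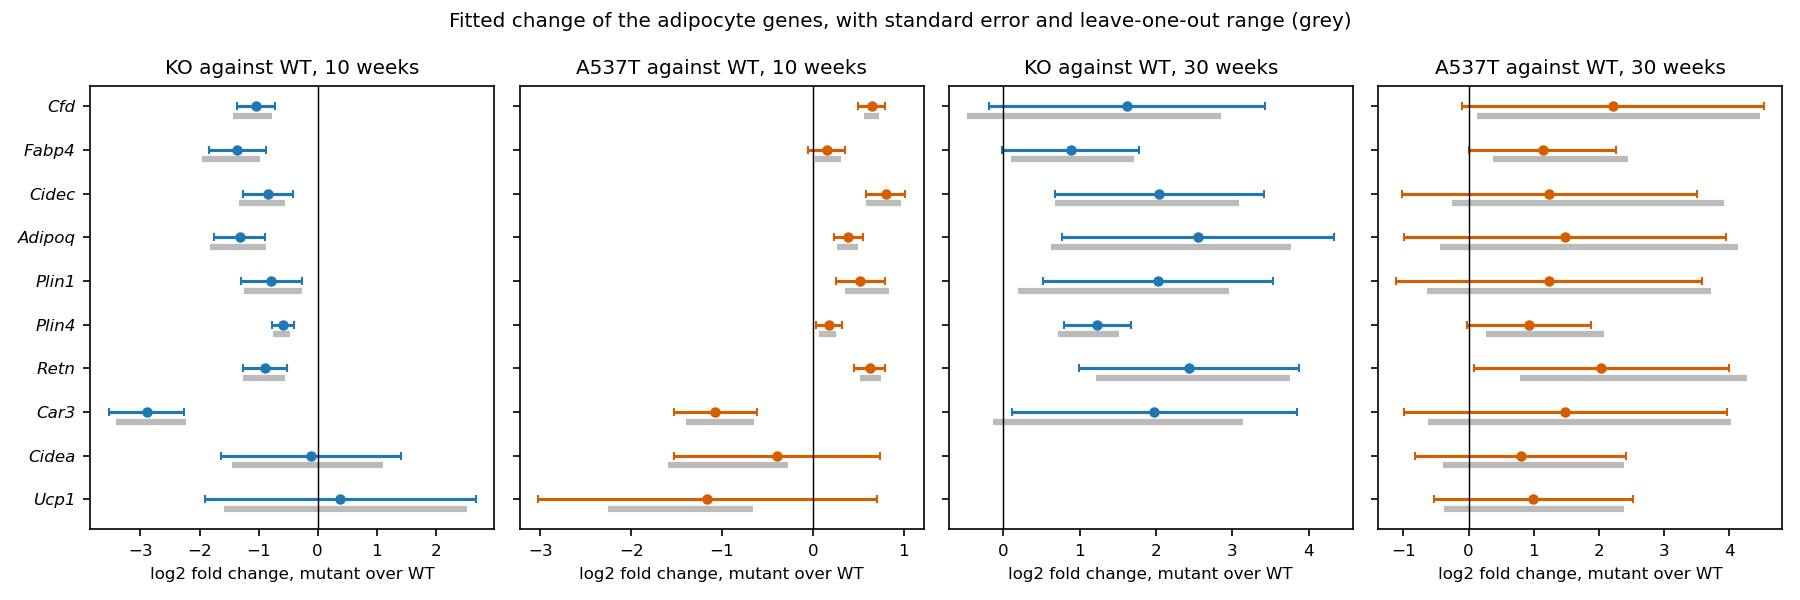
Fitted log2 fold change of each gene (rows), mutant over WT, in the 4 comparisons (panels), with points and bars for the value and its standard error and a grey band for the range when each library was left out. The KO values of 10 weeks lie below 0 for 9 of 10 genes. Bars at 30 weeks reach several log2 units in width but are narrower for Plin4 in KO. Cidea and Ucp1 are below the filter in KO at 30 weeks.

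In A537T prostates at 10 weeks several adipocyte genes were somewhat higher than in WT. Of the 10, 7 were higher and 3 lower, with a median log2 fold change of 0.29 beside 0.011 over all genes, of which 51.5% were higher. Cfd, Cidec, Adipoq and Retn were higher in all 3 A537T libraries than in all 3 WT libraries, as were 5.58% of all genes. None was lower in all 3, as were 6.34% of all genes. Cfd was at 1565, 1710 and 1368 in WT and at 2617, 2478.5 and 2181 in A537T, so that the groups were well apart. Cidec was at 366, 310.4 and 216 against 542, 546 and 443. Resistin RNA was at 102, 140.1 and 115 against 176, 180 and 193. Adipoq was at 378, 316 and 349 against 539, 449 and 391, with the lowest A537T library just above the highest WT library. The log2 fold changes were 0.65 ± 0.15 for Cfd, 0.80 ± 0.22 for Cidec, 0.63 ± 0.17 for Retn and 0.39 ± 0.16 for Adipoq, each with an adjusted p of 0.746 in limma.

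The other members showed smaller or opposite differences in A537T at 10 weeks. Plin1, Plin4 and Fabp4 had log2 fold changes of 0.52, 0.18 and 0.15, all with overlapping libraries. Car3 was at 7133, 9784 and 20071 in WT and at 7770.0 in 16AF, 6034 and 3212 in the other A537T libraries, so that the groups overlapped (log2 fold change -1.07 ± 0.46). Its value was 0.050 ± 0.19 with the skeletal muscle genes as a covariate. Limma called 0 of 15131 genes, and 4 of the 10 members had an unadjusted p under 0.05 beside 6.43% of all genes. DESeq2 on recovered reads called Cfd alone of the 10 (0.65, adjusted p = 0.0279), beside 0.608% of all genes, and edgeR called 0. Both mutants of an age were set against the same 3 WT libraries, so that their values are not independent.

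At 30 weeks the adipocyte genes spread widely among the libraries of each group. In KO, 8 of the 10 members passed the filter on low values, and all 8 had a higher fitted level than in WT, with a median log2 fold change of 2.00 beside -0.0067 over 14729 genes, of which 49.1% were higher. Only Plin4 was higher in all 3 KO libraries, as were 7.92% of all genes, and 0 of the 8 were lower in all 3 (8.41% of all). Plin4 was at 149, 455 and 430 in WT and at 556, 941 and 729 in KO, with a log2 fold change of 1.23 ± 0.44 and an adjusted p of 0.416 in limma. Adipoq was at 0, 74.9 and 38.6 in WT (1AF, 2AF and 3AF) and at 14.8, 353 and 108 in KO (4AF, 5AF and 6AF). Library 1AF was low throughout, with Cfd at 1.6 where 2AF and 3AF had 258 and 158, and library 5AF was the highest, with Cfd at 523. Retn was at 0, 10.4 and 12.9 against 3.7, 119.7 and 43.0. Without 1AF the log2 fold changes of Cfd and Car3 were -0.47 and -0.14, in place of 1.62 and 1.98. With the seminal vesicle genes as a covariate all 8 values were larger, from 1.68 for Plin4 to 4.85 for Adipoq, and limma called 0 of them. That fit sets mainly 5AF against WT, because 5AF alone of the KO libraries was as low in these genes as WT. It cannot show the part of seminal vesicle RNA. Of the 8 members, 1 had an unadjusted p under 0.05, beside 11% of all genes. Limma and edgeR called 0 of them, and so did DESeq2, which called 1.94% of all genes. Cidea and Ucp1 had a mean below 10 over the 6 libraries and were not tested, and they went the other way from the 8 members. Cidea was at 0, 17.3 and 6.9 in WT and at 3.7, 0 and 0 in KO. Ucp1 was at 0, 19.6 and 12.9 in WT and at 0 in all 3 KO libraries.

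In A537T at 30 weeks all 10 fitted values were higher than in WT, with a median log2 fold change of 1.24 beside -0.0052 over 14789 genes, of which 49.3% were higher. Of the 10, 0 were higher in all 3 A537T libraries, against 9.18% of all genes, and 0 were lower in all 3, against 9.40%. Library 8AF stood apart from the rest of its group and held almost no adipocyte RNA, with Adipoq, Cidec, Plin1, Retn and Cidea at 0, Cfd at 8.7 and Car3 at 6.7. The other 2 libraries, 7AF and 9AF, held Adipoq at 210 and 298, Cfd at 893 and 1249, Cidec at 212 and 322 and Fabp4 at 745 and 1009. These lay above all WT libraries, where Cfd was at 1.6, 257 and 158. The log2 fold changes ran from 0.80 ± 1.62 for Cidea to 2.22 ± 2.31 for Cfd. Without 8AF, limma called Plin4 (2.09, adjusted p = 0.0455) and 8.27% of all genes. With all libraries 0 members had an unadjusted p under 0.05, beside 13.6% of all genes. Limma and edgeR called 0, and so did DESeq2, which called 3.28% of all genes. The seminal vesicle list was near 0 in 8AF and in the 3 WT libraries and at 72420.1 and 91756 CPM in 7AF and 9AF. With it as a covariate all 10 values turned negative, from -3.41 for Cidec to -1.09 for Plin4. That fit sets mainly 8AF against WT, because 8AF alone of the A537T libraries was as low in these genes as WT. It therefore cannot show the part of seminal vesicle RNA in the result, which was not tested.

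The change with age of the mutant effect was tested for all members. In KO, the difference between the log2 fold changes at 30 and 10 weeks was 1.82 ± 0.52 for Plin4 (unadjusted p = 0.00505, adjusted p = 0.264 in limma). All 3 KO libraries lay below WT at 10 weeks and above it at 30 weeks. The share of all genes with both separations was not counted. The difference was 4.87 ± 2.21 for Car3 and 3.87 ± 2.05 for Adipoq. Limma called 0 of 15016 genes in KO and 0 of 15113 in A537T, where 12.8 and 12.2% of genes had an unadjusted p under 0.05. For A537T the differences lay between 0.44 and 2.56, each smaller than its SE.

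Ucp1 and Cidea, which mark thermogenic fat, were detected in fewer libraries than the other members. Cidea belongs to the CIDE family with Cidec and is abundant in brown fat. Ucp1 had more than 3 reads in 6 of 18 libraries. It was at 86.1 in WT library 10AF and at 88.5 in KO library 13AF, while the other 7 libraries of 10 weeks had at most 3 reads. At 30 weeks it was at 19.6 and 12.9 in 2AF and 3AF and at 32.1 and 36.1 in 7AF and 9AF. It was at 0 in all 3 KO libraries of 30 weeks and also in WT library 1AF. The WT mean of 10.8 was at least 3.46-fold higher than the level that 3 reads per library allow in KO, and at least 2.06-fold higher without 2AF. Cidea had the same libraries on top at 10 weeks, with 55.8 in 10AF and 61.0 in 13AF against 9.5 or less in the others. Library 10AF was also the highest WT library of that age for Adipoq, Fabp4, Cidec, Plin1 and Plin4, and 13AF the highest KO library for them. At 30 weeks Ucp1 and Cidea were at 0 or 1 read in 1AF and 8AF, where Adipoq was at 0. Some other libraries with much Adipoq held little of either gene. Library 5AF had Adipoq at 353 with Ucp1 and Cidea at 0, whereas 10AF had Adipoq at 361 with Ucp1 at 86.1. In A537T at 10 weeks Adipoq was at its highest and Ucp1 at 1.1, 0 and 3.0.

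**Figure D3:**
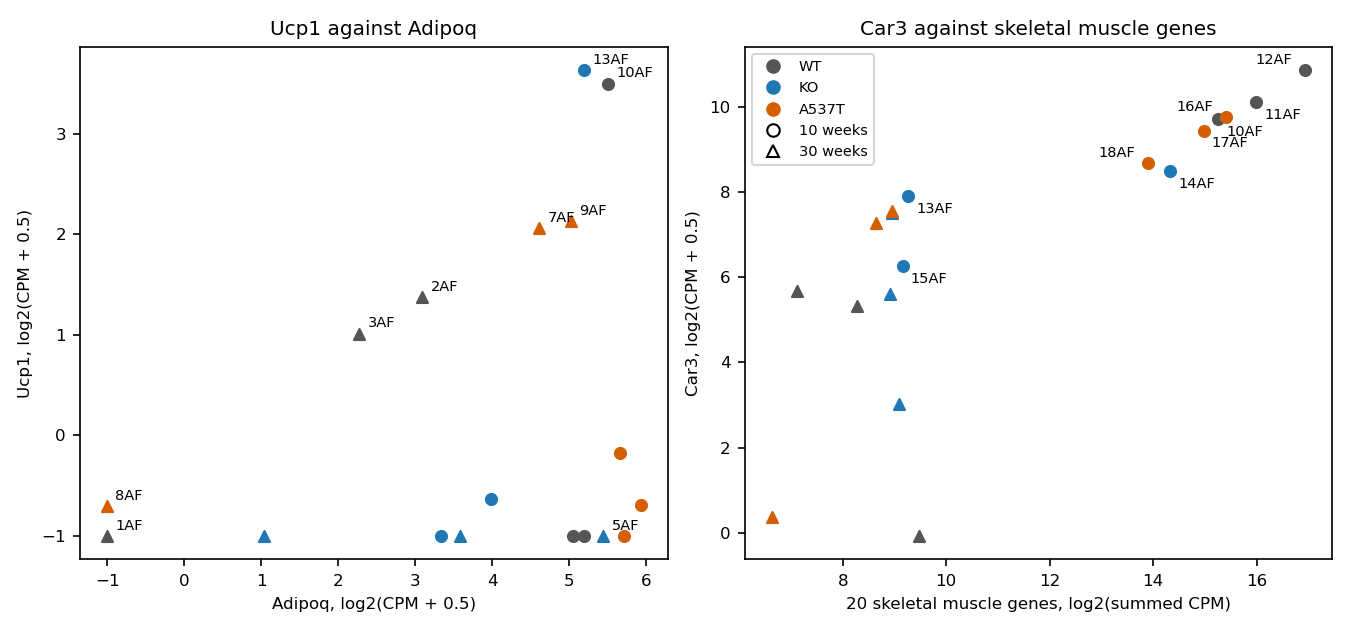
Left, Ucp1 against Adipoq and, right, Car3 against the summed level of 20 skeletal muscle genes, each on a log2 scale of CPM, with a point per library (circles 10 weeks, triangles 30 weeks). The 6 libraries with Ucp1 above 1 CPM include 10AF and 13AF of 10 weeks, whereas 5AF has much Adipoq and no Ucp1, and Car3 runs with the muscle genes at 10 weeks.

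Car3 tracked skeletal muscle RNA at 10 weeks. Over the 9 libraries of that age, its log2 level and that of the muscle list had a Pearson r of 0.93 (Spearman 0.98), and r was 0.90 over the 6 mutant libraries. For the mean of the 8 members with at least 10 normalized counts in all 4 tables, r with the muscle list was 0.57. At 10 weeks Car3 also ran with other lists described below, at r of 0.97 for brown fat genes and 0.96 for uptake genes. The brown fat list holds genes that are also muscle genes. Its Spearman value with Car3 was that of the muscle list (0.98), while Ucp1 and Cidea had Pearson r of -0.024 and 0.048 with it. Whether Car3 ran with these lists apart from muscle was not tested. At 30 weeks, where muscle RNA was scarce, r of Car3 with the muscle list was 0.077 over 9 libraries. These libraries share their tissue content, so the values only describe them. Ratios of reads were taken for WT libraries from the table they share with KO. For each read of Adipoq, Car3 had 18.7, 30.6 and 57.0 reads in WT at 10 weeks and 8.21 to 14.4 in A537T. In KO it had 6.67, 23.6 and 7.92 reads, with the middle value in 14AF, the KO library with the most muscle RNA (2.05% of reads). At 30 weeks it had 4.23 to 9.08 reads in every library with at least 10 reads of Adipoq.

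Over the 16 libraries with at least 10 reads of Adipoq, the ratio to Adipoq was 0.615 to 1.46 for Cidec and 2.42 to 6.08 for Fabp4, narrower than the range of 4.23 to 57.0 for Car3. Cfd had 4.01 to 7.05 reads per read of Adipoq in the 9 libraries of 10 weeks and 3.45 to 4.25 in the WT and A537T libraries of 30 weeks. In KO at 30 weeks it had 2.33, 1.48 and 1.56, so that all 3 lay below the other libraries, although the first rests on 12 reads of Adipoq. The ratio was chosen after its values were seen and was not tested. Plin4 had 2.66 to 12.7 reads per read of Adipoq in all but library 4AF, where it had 37.7. In libraries 1AF and 8AF, where Adipoq was at 0, Fabp4 kept 57.9 and 55.9 counts and Plin4 149 and 118.

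**Figure D4:**
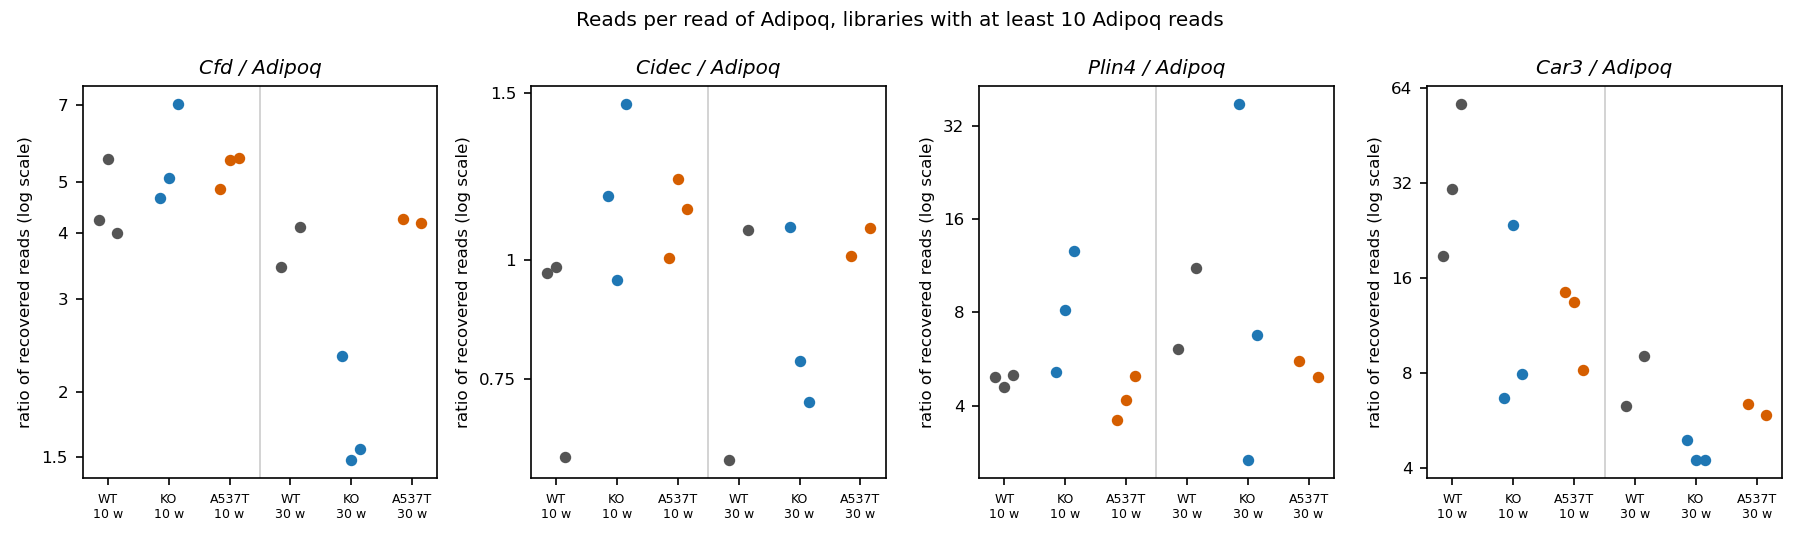
Reads of Cfd, Cidec, Plin4 and Car3 per read of Adipoq (log axis) by group, with a point per library that has at least 10 reads of Adipoq. Cfd is lowest in the 3 KO libraries of 30 weeks, and Car3 is highest in 2 WT libraries of 10 weeks (57.0 and 30.6), followed by KO library 14AF (23.6).

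The members moved together from library to library. Over the 28 pairs of 8 members, the median Pearson r of log2(CPM + 0.5) was 0.91 at 10 weeks and 0.97 at 30 weeks, over 9 libraries each. Car3 was the exception at 10 weeks, with r down to 0.37 (with Cidec), and the 21 pairs without it had r of at least 0.85. The genes most like the mean of the 8 members over all 18 libraries were Cyp2e1 (r = 0.98), Pck1 (0.98), Thrsp (0.97), Trarg1 (0.97), A530016L24Rik (0.95), Hp (0.95), Dgat2 (0.94) and Trf (0.94). Pck1 makes glycerol phosphate for triglyceride in fat, Dgat2 performs the last step of triglyceride synthesis, Thrsp is a lipogenic gene, and Trarg1 acts in glucose transporter traffic. Cyp2e1 is a cytochrome P450 enzyme, and Hp and Trf encode haptoglobin and transferrin. All libraries share the step between ages, and r within 10 weeks was 0.78 for Cyp2e1 and 0.98 for Dgat2.

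Other genes that act in fat cells, 78 in all, were followed in 7 lists. Their levels are not those of fat cells alone. In 1AF and 8AF, where Adipoq was at 0, the synthesis list was at 2247 and 2375 CPM. It was at 1448 to 2815 CPM in the other libraries of 30 weeks. Scd2 of that list was at 1071 and 1130 CPM in 1AF and 8AF. The part of fat cells in the list results was not tested. In KO at 10 weeks 58 of 73 tested genes were lower and 15 (20.5%) higher, beside 49.4% higher of all genes, and 27 lay below WT in all libraries, beside 14.3% of all genes. Limma called 0, and 27 (37%) had an unadjusted p under 0.05, beside 19.4% of all genes. Of the 8 fatty acid and glucose uptake genes all 8 were lower, with a median of -1.13. Over the libraries of 10 weeks this list followed Car3 (r = 0.96) more closely than any other member (at most 0.73, with Adipoq). Without the 3 WT libraries this order did not hold, with r of 0.92 for Car3, 0.97 for Adipoq and 0.96 for Cfd. Among the uptake genes Lpl, the lipase that frees fatty acids from lipoproteins, was at 1841 ± 535 in WT and 722 ± 265 in KO (SD, n = 3). Slc2a4, the insulin-responsive glucose transporter of fat and muscle, had the largest value of its list (-2.39 ± 0.49), and muscle RNA was also lower in these KO libraries. The part of muscle RNA in the lower levels of these lists was not tested. The 16 synthesis genes included Gpd1, which makes glycerol phosphate (-1.29 ± 0.36), and 15 of the 16 were lower. The stearoyl-CoA desaturases Scd1 and Scd2 were the most abundant of them, at 7474 ± 786 and 7302 ± 1696 in WT and 4931 ± 3619.9 and 4552 ± 785 in KO. The exception was the elongase Elovl6 (1.15 ± 0.50). At 30 weeks Elovl6 was at 25.9 to 52.0 CPM in 4AF, 6AF, 7AF and 9AF, the libraries rich in seminal vesicle RNA. It was at 2.08 to 8.62 CPM in the others of that age. The part of seminal vesicle RNA in its level was not tested. Of the 12 lipolysis and droplet genes 10 were lower, with Aqp7, the glycerol channel, at -1.55 ± 0.62. Its most abundant genes, the caveolar Cavin1 and the droplet protein Plin3, had log2 fold changes of 0.081 and 0.057. The regulator list was mixed, with 7 of 10 lower, Rxra at -0.61 ± 0.13, Srebf1 at -0.34 ± 0.13, Cebpb at -0.91 ± 0.47 and Cebpa at 0.38 ± 0.40. Of 12 genes tested for secreted factors and receptors 9 were lower, with the β3-adrenergic receptor Adrb3 at -1.64 ± 0.82, Adipor1 at -0.29 ± 0.13 and the insulin receptor Insr at 0.094 ± 0.14. Of the brown fat list, Cox8b (-4.29 ± 1.44) and Cox7a1 (-4.08 ± 1.04) were lower, and both are also muscle genes. Kcnk3, a potassium channel, was at -0.70 ± 0.42 and Pdk4, a kinase that restrains glucose oxidation, at -1.91 ± 0.60. Prdm16, a regulator of brown fat, was at 58.3 ± 50.4 in WT and 353 ± 63.7 in KO, opposite to the list. Of 7 progenitor genes tested 4 were higher, with Dpp4 at 0.60 ± 0.16, and Pdgfra was at 740 ± 83.8 and 750.1 ± 44.5.

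In A537T at 10 weeks 38 of 73 genes (52.1%) were higher and 35 lower, beside 51.5% higher of all genes, with a median of 0.015. G0s2, an inhibitor of lipolysis, was at 79.8 ± 4.28 in WT and 140 ± 8.19 in A537T. Cebpa was higher (0.87 ± 0.35) and Vldlr, a lipoprotein receptor, lower (-1.55 ± 0.44). Kcnk3 was at 489.5 ± 169 in WT and 863 ± 11.1 in A537T, and Acsl1, which activates fatty acids, was lower (-0.50 ± 0.20). Pi16, a progenitor gene, was at 1.29 ± 0.46. At 30 weeks, 38 of 65 genes in KO (58.5%) and 50 of 67 in A537T (74.6%) were higher, beside 49.1 and 49.3% of all genes, with medians of 0.13 and 0.27. Leptin (Lep) was at 5.60 ± 5.08 in WT and 109.9 ± 137 in KO. Ly6a, a marker of progenitor and endothelial cells, was at 148 ± 42.9 in WT, 389 ± 89.7 in KO and 471 ± 108 in A537T. All its mutant libraries lay above WT, as for 7.92% of all genes in KO and 9.18% in A537T. Of the tested list genes, 7 of 65 in KO and 14 of 67 in A537T lay above WT in this way. Below WT lay 3 and 2, beside 8.41 and 9.40% of all genes. Prdm16 was at 14.5 ± 1.63 in WT and 263 ± 189 in KO. Limma called 0 genes of these lists in each of the 3 comparisons, and 10, 6 and 11 had an unadjusted p under 0.05. These were 13.7, 9.23 and 16.4% of the tested list genes, beside 6.43, 11 and 13.6% of all genes.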

How the data were processed

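RNA of the ventral and lateral prostate lobes was sequenced by the TruSeq protocol on a NovaSeq. Per the study's methods and the submitters' notes, reads were trimmed (Trim Galore 0.4.1, cutadapt 1.18), aligned with STAR 2.7.3a to GRCm38.p6, quantified with Salmon and normalized with DESeq2 1.26. The deposited signal is the count of a gene scaled by the size factor of its library, 6 libraries to a table. Other deposited files hold the authors' fold changes and s-values and were not used. Columns carry library numbers without genotype: those in both tables of an age are WT, and the others are the mutant of their table.

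In the library with the fewest, 99.9857% of values were whole multiples of 1 read within 0.02 reads, and these reads gave CPM and the DESeq2 1.42.0 and edgeR 4.0.16 alternatives. For 4 columns with a size factor near 1 the steps could not be checked automatically. A mean of 10 or more was required, and limma 3.58.1 (mean trend, R 4.3.3) was run on log2(normalized count + 1), with Benjamini-Hochberg adjustment and a threshold of 0.05. The script was tested on simulated data. Fold changes on this scale understate changes of low genes. Lengths were those of the longest principal transcript of each gene in GENCODE vM21.

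The members and gene lists were chosen with earlier results of these data known. The text names the 10 members, the targeted gene and, per fat list, the 2 most abundant genes and the gene of largest change in each comparison, and the 8 genes most like the members' mean (mean CPM of at least 1). The lists are lipolysis, synthesis, regulators, uptake, secreted factors and receptors, brown fat and progenitors, and tissue markers. Alternatives are described in the closing section.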

Additional observations from a re-analysis of the deposited data

Results flagged for a closer look

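Plin4 in KO had opposite directions at the 2 ages. Its log2 fold changes were -0.59 ± 0.18 at 10 weeks and 1.23 ± 0.44 at 30 weeks, all KO libraries lay below WT at the first age and above it at the second, and the difference between ages was 1.82 ± 0.52 in limma (unadjusted p = 0.00505, adjusted p = 0.264). The difference kept its sign when any of the 12 libraries was left out, at 1.30 to 2.10. Plin4 was picked from the members for this separation in opposite directions. The values given here come from the same libraries, so they describe it and give no independent support. The share of all genes with both separations was not counted. The seminal vesicle list was lower in WT than in all KO libraries at 10 weeks and in all but 5AF at 30 weeks, and its part in the result was not tested.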

How the results depend on the processing

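No paired analysis was possible because the columns carry no replicate number. The alternatives were pseudocount 8, minimum means of 1 and 100 and no filter, the same total for all libraries, quantile normalization, no mean trend, DESeq2 and edgeR on recovered reads, a skeletal muscle score (10 weeks) or a seminal vesicle score (30 weeks) as covariate, and leaving out each library. Of 889 values of the members under them, 842 kept their direction and side of the threshold, 43 reversed, 4 newly passed and 0 were lost. No member passed the threshold in a main fit, so none could be lost, and the tally mainly describes direction. Scaling to the same total moved the median over all genes to 0.20 in KO and 0.15 in A537T at 10 weeks. DESeq2 called 1 member in KO and 1 in A537T at 10 weeks. Leaving out a library called 0 to 1 members in KO at 10 weeks (1 without 10AF) and 0 to 1 in A537T at 30 weeks (1 without 8AF).

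Cidea in KO at 10 weeks reversed to 0.025 with the same total, 0.031 with DESeq2 and 0.068 with edgeR. With the muscle score, Ucp1 in KO was -1.80 and Car3 in A537T was 0.050. In KO the fit with this score cannot separate muscle RNA from genotype, because the muscle list did not overlap between KO and WT. With the seminal vesicle score the A537T values of 30 weeks were -1.53 (Cfd), -1.12 (Fabp4), -3.41 (Cidec), -3.02 (Adipoq), -2.98 (Plin1), -1.09 (Plin4), -1.84 (Retn), -2.78 (Car3), -1.89 (Cidea) and -1.29 (Ucp1). In KO at 30 weeks the 8 tested members had larger values with the same score (1.68 to 4.85). In A537T this fit set mainly 8AF against WT, and in KO mainly 5AF, the mutant libraries with little seminal vesicle RNA. The cause was not tested. Without the 3 WT libraries, r with the muscle list at 10 weeks was 0.90 for Car3 and 0.60 for the mean of 8 members.

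Members whose direction turned when a library was left out had these ranges. The log2 values in KO at 10 weeks were -1.45 to 1.10 for Cidea and -1.59 to 2.53 for Ucp1. The log2 values in KO at 30 weeks were -0.47 to 2.85 for Cfd and -0.14 to 3.14 for Car3. The log2 values in A537T at 30 weeks were -0.25 to 3.92 for Cidec, -0.44 to 4.14 for Adipoq, -0.63 to 3.73 for Plin1, -0.62 to 4.03 for Car3, -0.40 to 2.39 for Cidea and -0.38 to 2.38 for Ucp1. The log2 values for the A537T difference between ages were -0.039 to 2.79 for Cidea, -0.52 to 3.83 for Cfd, -1.05 to 3.12 for Cidec, -0.83 to 3.74 for Adipoq and -1.16 to 3.20 for Plin1.

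With 3 libraries per group, of which 1 at 30 weeks in both WT and A537T held almost no adipocyte RNA, the errors at 30 weeks reached 2.48 on the log2 scale. Cidea and Ucp1 had more than 3 reads in 10 and 6 of 18 libraries.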
